A study of Mus musculus with 13 samples.

Results

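The loci of Nkx2-2 and Nkx2-9, 2 related homeodomain genes of the ventral neural tube, were examined for binding by Nkx2.2, Nkx6.1, Olig2 and Gli3 in mouse neural progenitors. A peak was taken as a member when its centre lay in chr2:146850000-147200000 (mm9), the window of Nkx2-2, or in chr12:57550000-57850000 (mm9), the window of Nkx2-9. The windows held 25 of the 23280 peaks of the 4 lists, 8 in the Nkx2-2 window and 17 in the Nkx2-9 window. No measured value entered this choice, although the loci were picked with earlier results of these data known.

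Nkx2.2 is induced by Sonic hedgehog in the ventral-most neural progenitors, where it represses genes of neighbouring domains, and its own gene is thus both a target of the pathway and the source of one of the precipitated proteins. Nkx2-9 encodes a close relative that is transcribed beside the floor plate in an overlapping domain. Olig2, a basic helix-loop-helix protein, marks the adjacent motor neuron progenitors, in which Nkx2-2 is kept silent. Nkx6.1 is a homeodomain protein of ventral progenitors, not of that domain alone. Gli3 is processed to a repressor of hedgehog targets where the signal is missing. In the RefSeq gene order the protein-coding neighbours of Nkx2-2 are Nkx2-4 and Pax1, followed by Xrn2 and Foxa2, and those of Nkx2-9 are Nkx2-1 and Pax9, followed by Mbip and Slc25a21. The gene table is for GRCm38, another build than mm9, so no peak was assigned to a gene and its place relative to a transcription start was not analysed here.

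The ventral factors came from embryonic stem (ES) cell-derived progenitors whose background mixes Swiss Webster, 129 Sv and C57BL6/J, cultured for 2 days in suspension and then 3 days with 500 nM retinoic acid and 160 to 800 nM Smoothened agonist, which activates the hedgehog pathway. Both Nkx2.2 libraries and replicate 2 of Nkx6.1 and of Olig2 carried Rosa26-Gli1FLAG, a derivative of the line YFP3.1, from which replicate 1 of Nkx6.1 and of Olig2 came directly. Gli3 came from progenitors made without the agonist, labelled dorsal, from a V6.5 line (C57BL/6 X 129/sv) with 3xFLAG-Avi inserted at the Gli3 initiation codon, precipitated through the tag. Factor, culture and line therefore cannot be told apart in any comparison with Gli3. There were 2 ChIP libraries per ventral factor, 1 for Gli3 and 6 inputs, but only 1 peak list per factor, so no result below has a replicate test, and all values are descriptions.

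The lists hold positions of 300 bp peaks without scores. Coverage tables exist for the 3 ventral factors and give coverage in 3 blocks of columns that name no library, each in the authors' units; depth is unknown. Coverage of a peak is the mean within 250 bp of its centre, and its rank is the share of its own list with lower coverage in the same block. Tables are not on a known common scale, so ranks are compared within a list. Block 3 of the Nkx6.1 and Olig2 tables held the same profile: over 80 pairs of nearby peaks on the same 25 bp grid the median correlation of the 2 blocks was 1.0 and their median ratio 1.0, against median correlations of 0.845 for block 1 and 0.89 for block 2. These 2 blocks thus hold 1 library, and the labels tie 1 sample to both tables, the input of replicate 2. Block 3 of the Nkx2.2 table was not matched in this way (median correlation 0.18 with that of Olig2 over 72 pairs). Blocks carry numbers throughout.

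The promoters of both genes, from 250 bases before to 50 after the annotated start, are shown as the regulatory sequence next to the 2 starts that the windows are named for. They are from RefSeq (GRCm38.p6, both on the minus strand, at chr2:147186353-147186652 for Nkx2-2 and chr12:56613235-56613534 for Nkx2-9), coordinates that cannot be set beside the mm9 positions of the peaks. Capitals mark a match to any of 6 motifs searched on both strands.
Nkx2-2: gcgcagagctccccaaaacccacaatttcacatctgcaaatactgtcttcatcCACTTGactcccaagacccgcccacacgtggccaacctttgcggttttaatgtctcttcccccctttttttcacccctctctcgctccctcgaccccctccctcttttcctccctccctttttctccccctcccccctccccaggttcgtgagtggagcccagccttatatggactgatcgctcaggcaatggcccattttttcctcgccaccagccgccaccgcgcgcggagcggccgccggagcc
Nkx2-9: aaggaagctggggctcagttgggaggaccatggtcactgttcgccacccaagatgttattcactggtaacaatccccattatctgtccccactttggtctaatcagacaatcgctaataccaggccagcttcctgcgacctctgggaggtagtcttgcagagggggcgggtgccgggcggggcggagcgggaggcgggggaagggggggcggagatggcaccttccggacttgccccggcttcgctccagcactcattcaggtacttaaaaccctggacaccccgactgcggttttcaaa
The Nkx2-2 promoter held 1 match to CAAGTG, a core bound by Nkx2 homeodomains, read on the opposite strand and beginning at base -197 from the start. This motif is in 13.6% of all 32851 mouse promoters of that length. None of the 6 motifs was in the Nkx2-9 promoter, and the Nkx2-2 promoter held no match to the Gli consensus GACCACCCA (in 0.253% of promoters), the second Nkx2 core AAGTGC (12.2%), the E-boxes CAGCTG (16.3%) and CATATG (3.91%) or the homeodomain core TTAATT (11.3%). CAAGTG and AAGTGC share the bases AAGTG and so can overlap. The promoters had a GC content of 59.7% for Nkx2-2 and 59.3% for Nkx2-9, against a median of 52.7% over all promoters.

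Both windows were rich in Nkx2.2 peaks, and they differed in the other factors. The Nkx2-2 window (350 kb) held 5 Nkx2.2 peaks, where 0.738 would fall in a window of this length at the list's mean density; at least 5 were found in 1.5% of 7522 windows of 350 kb laid end to end along the genome. It held 2 Olig2 peaks, a number met by 37.9% of windows, and 1 Gli3 peak, met by 16.7%. It held 0 of the 4094 Nkx6.1 peaks, as did 65.7% of all windows, and 27.4% of the windows with 5 or more Nkx2.2 peaks.

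The Nkx2-9 window (300 kb) held peaks of all 4 lists. Its 5 Nkx2.2 peaks, 2 of which overlapped each other, were matched by 0.912% of 8776 windows of 300 kb. Its 7 Olig2 peaks were matched by 1.94% and its 3 Gli3 peaks by 1.34%. Its 2 Nkx6.1 peaks were matched by 10.3%. At least as many peaks of every list were found in 8 other windows (0.0912%), the first 5 of which by position began at 145800001 and 147600001 on chromosome 2, 117000001 on chromosome 4, 51900001 on chromosome 6 and 61200001 on chromosome 9. For the Nkx2-2 window 59 windows (0.784%) held as many of every list.

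**Figure D1:**
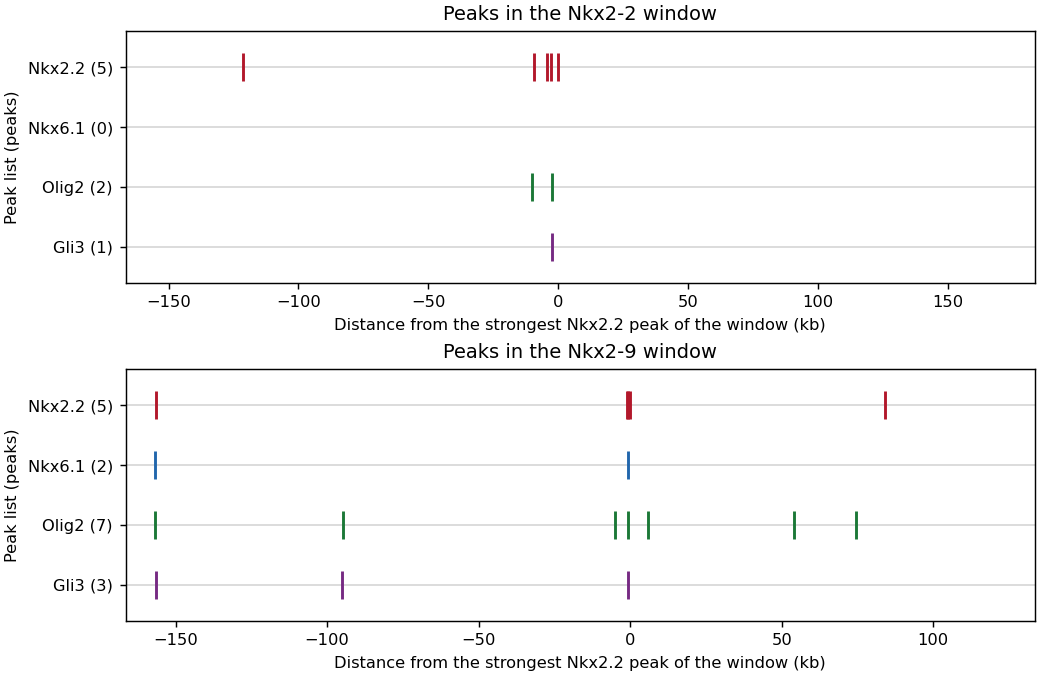
Peak centres of the 4 lists in the Nkx2-2 window (top) and the Nkx2-9 window (bottom), as distance in kb from the strongest Nkx2.2 peak of each window; each bar is 1 peak and the number of peaks stands beside the list. In the Nkx2-2 window 7 of the 8 peaks gather between the strongest Nkx2.2 and the strongest Olig2 peak, and Nkx6.1 has 0 peaks, whereas in the Nkx2-9 window 2 places hold all 4 lists.

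In the Nkx2-2 window, 7 of the 8 peaks lay between chr2:147006444 and 147016695. The strongest Nkx2.2 peak of the window lay at the right end, at chr2:147016396-147016695, on line 29 of the 5551-peak list. Block 1 gave 129 units of coverage, block 2 gave 27.6 and block 3 gave 1.12. The values were 7.02 times the list's median in block 1 and 6.22 times in block 2, above 99.4% and 98.5% of the list, while block 3 was near its median (0.93 times). No peak of another list overlapped it. No row of the Olig2 or Nkx6.1 table reaches this place, so this absence rests on the lists alone. The summit reached 370.6 units in block 1 and 59.97 in block 2, both at the peak centre.

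The remaining Nkx2.2 peaks of this group had lower coverage. The peak at chr2:147013686-147013985 had 21.1, 6.08 and 1.39 units in blocks 1, 2 and 3, above 60.8%, 66.5% and 57.5% of the list. Averaged within 100 bp of the centre, block 1 was above 41.1%. It was the only one of the window's 5 Nkx2.2 peaks at a peak of another list: it formed a region of 550 bp (chr2:147013686-147014235) with a Gli3 peak 200 bp and an Olig2 peak 250 bp to its right. The Olig2 peak had 21.8, 30.3 and 1.83 units, above 79.2% and 92.02% of the Olig2 list in blocks 1 and 2, but block 3, too, was above 96.5% of the list there. The Gli3 peak stood 9.38% of the way down its list of 1888. That list has no coverage table. In the ventral lists, line number and block 1 coverage had rank correlations between -0.928 and -0.827. For block 2 they lay between -0.634 and -0.525, and for block 3 between -0.139 and 0.279. The ventral lists thus run from high to low coverage mainly in block 1, and whether the Gli3 list does so was not analysed here.

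At chr2:147012141-147012440 the Nkx2.2 list held a peak with 21.02 units in block 1, above 60.6% of the list, but 3.18 in block 2, above 30.2%. Averaged within 100 bp of the centre instead, block 1 was above only 22.6% of the list. Block 1 there stayed above 10 units over 800 bp, from -4625 to -3825 bp of the strongest peak, the longest such stretch of the group. Its right flank (the outermost 250 bp of the table row) had 17.2 units in block 1 and 10.3 in block 2, where the row reaches the region shared with Olig2 and Gli3, so the peak did not stand out from that side.

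The strongest Olig2 peak of the window lay at the left end of the group, at chr2:147006444-147006743. It had 68.7, 81.9 and 1.23 units in blocks 1, 2 and 3, which is 6.07 and 9.70 times the list's median in blocks 1 and 2 and above 96.9% and 99.1% of the list. Block 3 was raised as well, at 1.74 times its median and above 85.2% of the list. The Nkx2.2 table showed 8.28 units in block 1 and 2.41 in block 2 at this Olig2 peak, above 2.198% and 17.9% of the Nkx2.2 list. Within 100 bp of the Olig2 centre, block 1 of Nkx2.2 was higher, at 15.6 units, and block 2 was 2.32. That block 1 value was close to the 15.04 units within 100 bp of the listed Nkx2.2 peak described next, so a local rise of Nkx2.2 in block 1 lay on the Olig2 summit although no Nkx2.2 peak was listed there. A weak Nkx2.2 peak lay 559 bp to the right, at chr2:147007003-147007302, with 11.3 units in block 1 and 2.76 in block 2, and the Olig2 table had 4.16 and 2.64 units there. The strongest Nkx2.2 and the strongest Olig2 peaks of the Nkx2-2 window thus lay at opposite ends of the group, and the one place with a listed peak of both was moderate in the Nkx2.2 list. The last peak of the window, an Nkx2.2 peak at chr2:146894970-146895269, stood 111.5 kb to the left of the group with 10.7 units in block 1 (above 9.58% of the list, or 17.7% within 100 bp of the centre) and 5.39 in block 2 (above 60.2%).

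**Figure D2:**
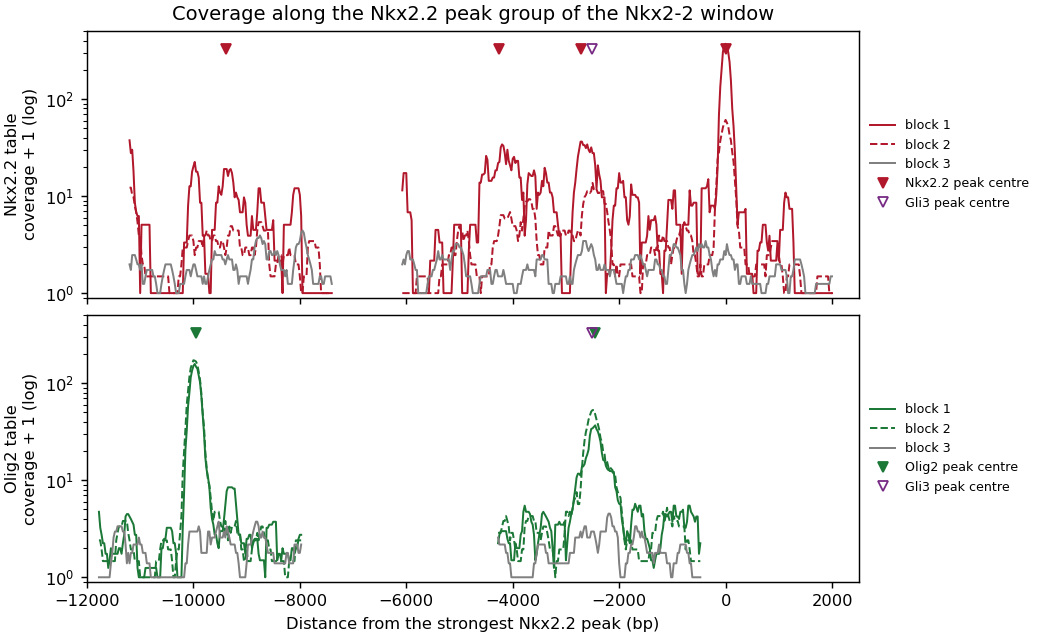
Coverage plus 1 (log axis) in the Nkx2.2 table (top) and the Olig2 table (bottom) along the peak group of the Nkx2-2 window, by distance in bp from the strongest Nkx2.2 peak. Lines are the 3 blocks, filled triangles the peak centres of that list and open triangles the Gli3 peak. Gaps are stretches that no table row reaches, or reaches only with its left end, which was left out. The sharp Nkx2.2 summit at 0 (370.6 units in block 1) has no peak of another list, but no row of the Olig2 or Nkx6.1 table reaches it. The sharp Olig2 summit at the left (156.9 units in block 1) meets 21.49 units of Nkx2.2 block 1 and 1.46 of block 2, where the Nkx2.2 list has no peak.

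In the Nkx2-9 window 2 regions held peaks of all 4 factors, among 70 such regions in the genome (0.367% of 19087 joined regions). They began 155.8 kb apart and were the only neighbouring pair of such regions within 300 kb of each other; the next closest pair anywhere was 311.9 kb apart.

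The left one, at chr12:57559694-57560179, held 1 peak of each list, joined over 486 bp. Nkx6.1 ranked highest within its own list there. Its peak, on line 19 of 4094, had 76.4 units in block 1 and 47.4 in block 2. These were 7.36 and 9.14 times the list's median, above 99.4% and 99.6% of the list. Block 3 was at 1.42 units, above 92.1% of the list. Olig2 had 52.5, 74.1 and 1.38 units, above 94.99%, 98.8% and 89.6% of its list in blocks 1, 2 and 3. Nkx2.2 had 21.2, 11.2 and 0.87 units, above 61.3% of its list in block 1 and 86.98% in block 2. Gli3 was on line 50 of 1888, and its centre was the farthest right of the 4. In each ventral table, blocks 1 and 2 had their summits within 25 bp of each other.

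**Figure D3:**
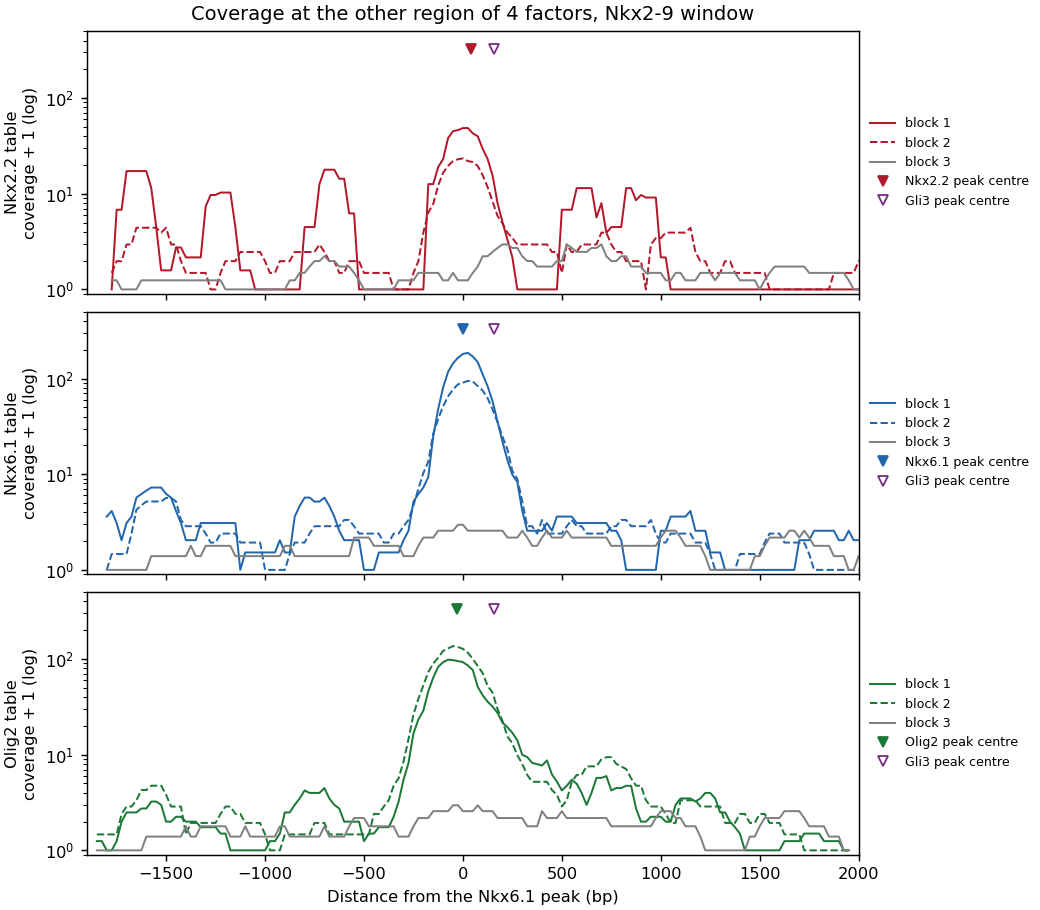
Coverage plus 1 (log axis) in the 3 ventral tables at the left region of 4 factors in the Nkx2-9 window, by distance in bp from the Nkx6.1 peak; lines are the 3 blocks, filled triangles the peak centre of that list and open triangles the Gli3 peak. Summits of the 3 factors lie within 100 bp of each other, at 184.7 units in block 1 for Nkx6.1, 97.5 for Olig2 and 47.6 for Nkx2.2. In block 2 they reach 93.5, 135.6 and 22.4 units in the same order, while block 3 does not exceed 1.96 units at their summits.

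The right one, at chr12:57715502-57716084, held 2 Nkx2.2 peaks and 1 peak of each other list, joined over 583 bp. Nkx6.1 (chr12:57715785-57716084) had 20.8, 24.8 and 0.52 units in blocks 1, 2 and 3, above 87.3%, 97.5% and 35.4% of its list. Olig2 (chr12:57715647-57715946) had 18.4, 46.9 and 0.37 units, above 74.04%, 96.6% and 18.2% of its list. The blocks differed most here, block 2 being 2.55 times block 1, the highest such ratio of the 9 Olig2 members. The 2 Nkx2.2 peaks, which overlapped each other, had 23.1 and 24.3 units in block 1 and 7.48 and 11.8 in block 2, above 67.1% and 70.9% of the list in block 1. Within 100 bp of their centres these ranks were 36.8% and 44.6%, below the list's median. The Gli3 peak (chr12:57715560-57715859) stood on line 33 of its list, the earliest of the 4 Gli3 members.

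The strongest Nkx2.2 peak of the window lay just beside this region and outside it. At chr12:57716384-57716683, 599 bp to the right of the Nkx6.1 centre, it had 66.8, 16.9 and 0.51 units in blocks 1, 2 and 3. These were 3.63 and 3.81 times the list's median in blocks 1 and 2, above 97.1% and 94.4% of the list, 1.91% of the way down the list, with block 3 at 0.43 times its median. The tables of the other factors reach this place. Nkx6.1 had 1.98 units in block 1 and 3.21 in block 2, against 1.16 in block 3, and Olig2 had 1.07 and 3.32, against 1.18 in block 3. The lowest block 1 coverage at any peak of the whole lists was 3.30 units for Nkx6.1 and 3.46 for Olig2, above both values. Both lists follow block 1 coverage (rank correlations with line number of -0.891 and -0.928). Lying below that floor therefore adds little to the absence of a listed peak. Within 100 bp of the centre, Nkx6.1 had 3.0 units in block 1 and 5.12 in block 2, and Olig2 had 1.68 and 3.98. Block 2 was less clear: over 250 bp, 27.1% of the Nkx6.1 list and 13.8% of the Olig2 list lay below its values, and block 2 of the Nkx6.1 table exceeded 5 units over 150 bp at this place. Thus an Nkx2.2 peak without a listed peak of another factor and a region with peaks of all 4 factors stood side by side.

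**Figure D4:**
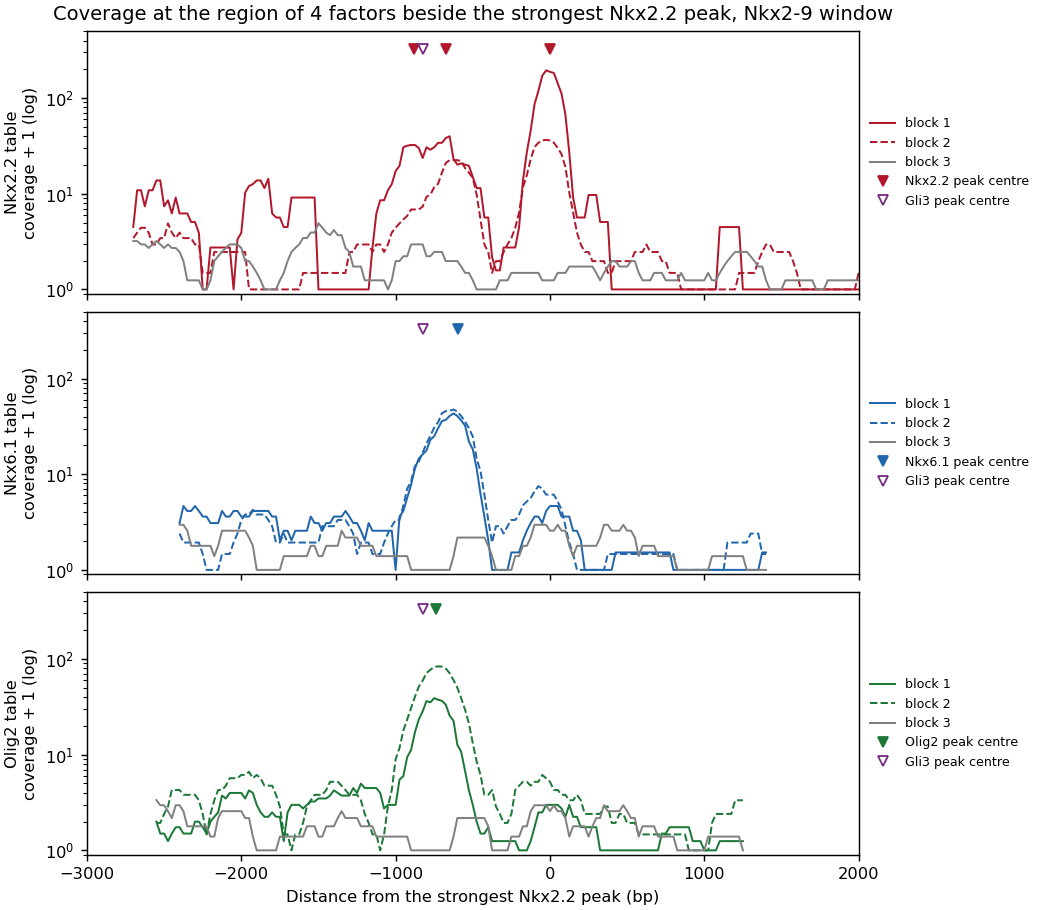
Coverage plus 1 (log axis) in the 3 ventral tables along the right region of 4 factors and the strongest Nkx2.2 peak of the Nkx2-9 window, by distance in bp from that peak; lines are the 3 blocks, filled triangles the peak centres of that list and open triangles the Gli3 peak. At 0 Nkx2.2 reaches 194.01 units in block 1 while the Nkx6.1 and Olig2 tables stay low, with a small rise in block 2 of Nkx6.1; between -1000 and -400 bp all 3 tables are raised.

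The other members of the Nkx2-9 window were 5 Olig2 peaks, 1 of them with Gli3, and 1 Nkx2.2 peak. The peak at chr12:57711226-57711525 was the strongest of these Olig2 peaks in blocks 1 and 2. It had 34.9, 24.8 and 0.99 units, above 89.9% and 88.4% of the list in blocks 1 and 2. Those at chr12:57722422-57722721, chr12:57770381-57770680 and chr12:57791016-57791315 had 13.1, 10.8 and 9.87 units in block 1 and 15.9, 4.25 and 4.32 in block 2. The latest in its list, on line 10695 of 11747, was the Olig2 peak at chr12:57621482-57621781 with 7.51 units in block 1 (above 20.4% of the list) and 11.8 in block 2 (above 65.2%). A Gli3 peak, also late in its list on line 1479, overlapped it. The Nkx2.2 peak at chr12:57800333-57800632, with 22.5 units in block 1 and 5.50 in block 2, was the member farthest to the right.

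Across both windows, 16 of the 21 members with coverage lay above their list's median in block 1, 17 in block 2 and 9 in block 3. Nkx2.2 accounted for 8 of 10 above the median in each of blocks 1 and 2 and for 2 of 10 in block 3. Both Nkx6.1 members were above it in blocks 1 and 2, and Olig2 had 6 and 7 of 9 above it. These counts depended on the width averaged. Within 100 bp of the centre, 12 of the 21 members lay above the median in block 1, 15 in block 2 and 14 in block 3, so blocks 1 and 2 did not stand apart from block 3. For Nkx2.2 the counts were then 4 of 10 in block 1, 6 in block 2 and 5 in block 3.

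Block 2 was 0.15 to 0.53 times block 1 at the 10 Nkx2.2 members, and 0.39 to 2.55 times at the 9 Olig2 members, where the lists' medians were 4.43 units in block 2 and 18.4 in block 1 for Nkx2.2, and 8.44 and 11.3 for Olig2.

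Coverage over 2 times that of the right flank, a measure nearly every listed peak meets in blocks 1 and 2, was counted in the same way. Of the 10 Nkx2.2 members 9 met it in block 1 (98.3% of the list), 8 in block 2 (93.1%) and 6 in block 3 (55.9%). Both Nkx6.1 members met it in blocks 1, 2 and 3 (99.2%, 94.8% and 39.7% of the list). All 9 Olig2 members met it in blocks 1 and 2 (98.7% and 96.9%) and 3 in block 3 (41.1%). These shares were near the backgrounds in blocks 1 and 2, and the Nkx2.2 member that missed it in both was the peak at chr2:147012141.

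**Figure D5:**
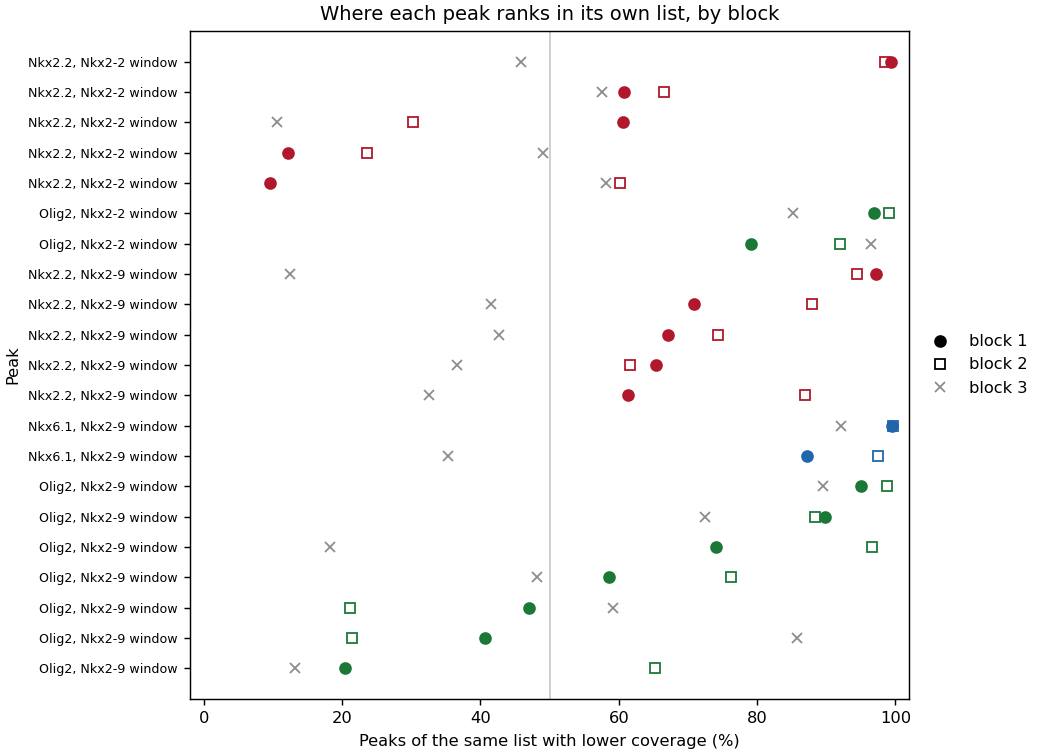
Share of the same list with lower coverage (%) for each of the 21 ventral peaks of the windows, by block; filled circles are block 1, open squares block 2 and grey crosses block 3, and the vertical line is the list's median. The strongest Nkx2.2 peaks of each window, the left Nkx6.1 peak and the strongest Olig2 peaks lie above 94% in blocks 1 and 2, while block 3 ranks run from 10.5% to 96.5%.

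Overlap with other lists was counted peak by peak. Of the 10 Nkx2.2 members, 4 overlapped a peak of any other list, against 35.3% of the whole Nkx2.2 list. All 4 overlapped a Gli3 peak (7.91% of the list) and an Olig2 peak (24.3%), and 3 an Nkx6.1 peak (16.1%). They were the peaks at 147013686, 57559766, 57715502 and 57715710, and neither strongest Nkx2.2 peak was among them. Of the 9 Olig2 members, 4 overlapped a peak of any other list (21.7% of the Olig2 list): 4 overlapped Gli3 (3.26%), 3 Nkx2.2 (11.2%) and 2 Nkx6.1 (13.5%).

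Both Nkx6.1 members overlapped a peak of each other list, against 47.1% of the Nkx6.1 list with a peak of any other list, 21.5% with Nkx2.2, 38.6% with Olig2 and 3.47% with Gli3. All 4 Gli3 members overlapped another list's peak (36.3% of the Gli3 list): 4 overlapped Olig2 (20.1%), 3 Nkx2.2 (22.5%) and 2 Nkx6.1 (7.36%). The overlapping peaks fall in the same few regions, so these counts are not independent of each other. Joined where they shared at least 1 bp, the 25 peaks formed 15 regions, 11 of 1 factor and 4 of 2 or more, against 16.2% of 2 or more factors among all joined regions.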

How the data were processed

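Members and lists were chosen with earlier results of these data known. Bowtie2 2.2.4, HOMER and the build mm9 are named in the submitters' processing notes; their settings and any pooling of replicates were not stated there. Per the labels, the authors deposited 4 peak lists (chromosome, start, end) and 3 tables of coverage that, per the file headers, run 2000 bp to each side of a peak in steps of 25 bp. Row and list line were matched by number. Columns of other samples left out numbered 0. Titles gave each sample its factor and its kind, ChIP or input.

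An overlap of at least 1 bp was required, and joined regions are unions of such peaks. Windows for comparison were laid end to end from base 1 of each chromosome to the last peak. Coverage within 250 bp of the centre was averaged in each block, and the flank is the outermost 250 bp on both sides unless the right flank is named. The left end of the rows, where coverage was generally low in every block, was left out of the drawn profiles. It is part of the flank, so values set over both flanks can be raised by it. Coverage of one factor at the peak of another was read from the nearest table row that reached it. No test was made, since blocks name no library and there is 1 list per factor. Named were all members, by the rule that every peak in the windows is described. Functions were checked on made-up peaks with known overlaps. Python 3.11.15, numpy 2.4.6, pandas 2.3.3 and scipy 1.17.1 were used. No genome of mm9 was used, so sequences of peaks are not printed.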

Additional observations from a re-analysis of the deposited data

How the results depend on the processing

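With 1 list per factor and blocks that name no library, depth and replicate spread are unknown. No paired analysis was possible because no column carries a replicate number and no result comes from a test. Shrinking the windows by 50 kb on each side left 3 Nkx2.2 peaks and 1 Nkx6.1 peak in the Nkx2-9 window, which lost the left region of 4 factors, and widening them brought the Gli3 peaks of the Nkx2-2 window to 2. Requiring more than 4 times the flank in the 2 higher blocks left 2 of the 5 Nkx2.2 peaks in the Nkx2-2 window. Those lost had block 1 flanks of 8.13 to 11.8 units. The peak at chr2:146894970 passed with a block 1 flank of 0, although above only 9.58% of its list in block 1. Joining peaks by centres within 1000 bp gave 2 regions of 2 or more factors in the Nkx2-2 window, and joining by centres within 100 bp left 1 region of 4 factors in the Nkx2-9 window. Among windows with at least 1 peak of any list, the shares with as many peaks as the Nkx2-2 window were 2.09% for Nkx2.2, 52.8% for Olig2 and 23.2% for Gli3, and for the Nkx2-9 window they were 1.34% for Nkx2.2, 15.1% for Nkx6.1, 2.84% for Olig2 and 1.97% for Gli3. Against the right flank alone, block 2 of the Nkx2.2 peak at chr2:147007003 stood at 2.97 times it (1 unit added to both), against 0.70 times both flanks. Shifted tiles, whole peaks inside the window and 150 bp of overlap kept every such count within 1.5 times and every share within its counting interval. Ranks of single peaks depended more on the setting: averaging within 100 bp moved 19 of the 21 block 1 ranks beyond their counting interval, and averaging the blocks without block 1 moved 21. Within 100 bp, members above their list's median numbered 4 of 10 for Nkx2.2 in block 1, and in block 3 they numbered 5 of 10 for Nkx2.2, 2 of 2 for Nkx6.1 and 14 of 21 in all; the cause was not tested.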

Other observations

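Nkx2.2 coverage in the Nkx2-2 window also reached a place with no peak in the Nkx2.2 list. At the left end of the row of the peak at chr2:147007003, between -11200 and -11100 bp of the strongest Nkx2.2 peak, block 1 reached 36.6 units and block 2 reached 11.2, above the 18.01 and 3.90 units at the summit of the listed peak itself. The outermost stretch of the row, to the left of that place, was left out of the profile, so the extent of this coverage was not analysed here. It was noticed after the values were seen, and no Olig2, Nkx6.1 or Gli3 peak of the window lies at that place.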
